A study of Sus scrofa with 10 samples.

Results

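Mural cells are the cells that wrap the blood vessels of the brain. Pericytes are embedded in the basement membrane of capillaries, and smooth muscle cells ring the arterioles and arteries and contract. Both respond to PDGF-B from the endothelium through the receptor PDGFRB, and in brain pericytes are known for their part in the blood-brain barrier. Here mural cells were cells of the pig medial entorhinal cortex (MEC) with at least 4 UMIs (unique molecular identifiers, each a counted RNA molecule) of PDGFRB and RGS5 together, which also made up at least 0.05% of the UMIs of the cell. RGS5 is a regulator of G protein signalling that marks mural cells. These UMIs had to outnumber those of the endothelial genes PECAM1 and FLT1, and cells with more than 4 UMIs of COL1A1 (fibroblasts), more than 5 UMIs of C1QA and C1QB (microglia) or 5% or more of their UMIs in HBB (red blood cells) were left out. Another endothelial gene of the rule, CLDN5, was not analysed here. The rule found 490 mural cells among 28229 cells in 10 libraries.

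The libraries held untreated MEC from crossbred fetuses at E50, E60 and E70, from a local pig production farm, and from adult sows. Whole cells were dissociated with papain in 1 library at E50 (E50_1, from 3 pooled brains), 3 at E60 (E60_1 to E60_3, from 1, 1 and 2 brains), 3 at E70 (E70_1 to E70_3, from 2, 1 and 1 brains by the sample labels) and 1 from the adult (Adult_1, 1 brain). E70_nc and Adult_nc held sorted nuclei of 1 brain each. The libraries held between 2336865 and 55755512 UMIs, and the median mural cell of the 5 whole cell libraries with at least 10 of them held between 6019 and 11355.5 UMIs. Of 27777 distinct cell barcodes 449 occurred in more than 1 library, and none of them was a mural cell in 2 libraries.

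The number of mural cells differed widely between libraries. There were 52 mural cells in E50_1, 257 in E60_1, 108 in E60_2 and 7 in E60_3. At E70 there were 3 in E70_1, 1 in E70_2 and 10 in E70_3. Adult_1 held 50, E70_nc held 2 and Adult_nc held 0 of 2552 nuclei, where 3 nuclei would be 0.118%, at a median of 690 UMIs per nucleus, so that mural nuclei may be there that did not reach 4 UMIs of the 2 genes. Most statements below therefore rest on E50_1, E60_1, E60_2, E70_3 and Adult_1, of which E70_3 gave 10 cells only.

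PDGFRB (chromosome 2, 151155753 to 151192818 of Sscrofa11.1) and RGS5 (chromosome 4, 87286953 to 87340816) chose the cells, so their values are given as a description. RGS5 had a median of 13 UMIs per mural cell in E60_1, 16 in E60_2, 16 in E70_3, 12 in Adult_1 and 8.5 in E50_1. PDGFRB had medians of 2, 1.5, 2.5, 1.5 and 6.5 UMIs in the same libraries. RGS5 gave most of the UMIs by which cells passed the rule in E60_1, E60_2, E70_3 and Adult_1, while in E50_1 PDGFRB gave 747 UMIs and RGS5 654. Of the 490 cells 29 had 4 or 5 UMIs of the 2 genes, and 15 further cells met the rest of the rule at 3 UMIs. Levels below are in CPM, the UMIs of a gene summed over a group of cells per 1000000 UMIs of these cells. The 14 cells at exactly 4 UMIs had 298 CPM of NOTCH3 and 1414 CPM of CALD1, against 96.1 and 881 CPM in the 15 cells just outside.

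Of the 490 cells 458 held a UMI of RGS5 and 32 did not, and 23 of the 32 came from E50_1. The label was checked against 8 further mural markers, which were NOTCH3, KCNJ8, ABCC9, CSPG4, MCAM, HIGD1B, CD248 and NDUFA4L2. At least 3 of these were detected in 428 of the 458 cells with RGS5 (93.4%) and in 0 of the 32 cells without it. The share of cells with RGS5 was 96.5% in E60_1, 96.2% in E60_2, 71.4% in Adult_1 (35 of 49, with 2 cells at none) and 0 of 2 in E70_nc. In the 5 libraries with at least 10 mural cells it was 7.69 to 28.7% of endothelial cells and 1.54 to 3.64% of all other cells. The data therefore went against the label for the cells without RGS5, which are called PDGFRB-only cells.

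The 23 PDGFRB-only cells of E50_1 held PDGFRB at 2815 CPM, against 380 CPM in the 29 mural cells with RGS5 of the same library. HIGD1B, KCNJ8 and ACTA2 each had 0 UMIs in them, and the floor of 3 UMIs was 14.1 CPM. STMN2, a neuronal microtubule regulator, was at 1936 CPM and detected in 20 of the 23 cells, and GAP43, a growth cone protein, was at 1226 CPM in 22 of the 23. In all other cells of E50_1 STMN2 was at 2308 CPM and GAP43 at 1220 CPM, while the mural cells with RGS5 held 211 and 139 CPM. Among the genes that led these cells over the others of the library, CRABP1, a retinoic acid binding protein, was at 2758 CPM in 9 of the 23 cells, and RUFY4, MAP3K19 and GPR157 each came from a single cell. The cells were set apart in what follows, and values are for the 458 mural cells with RGS5 unless stated otherwise.

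**Figure D1:**
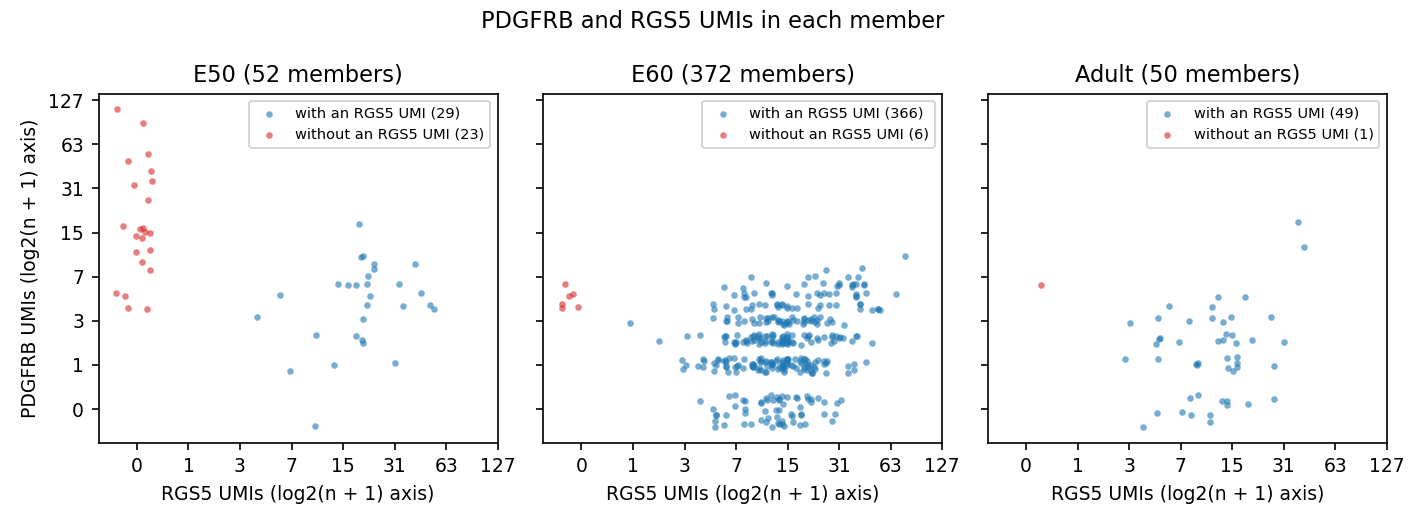
UMIs of RGS5 (horizontal) and PDGFRB (vertical) in each mural cell of E50, E60 and Adult libraries, on log2(n + 1) axes with a small random shift of each point, and cells without an RGS5 UMI in red. The 23 red cells of E50 form a column at 0 RGS5 UMIs, while E60 and Adult hold 6 and 1 of them.

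Counted over all 490 cells that met the rule, the share of mural cells was 0.944% in E50_1 (exact 95% CI 0.706 to 1.24%), 3.15% in E60_1 (2.78 to 3.55%), 3.10% in E60_2 (2.55 to 3.74%) and 0.260% in E60_3 (0.104 to 0.534%). It was 0.609% in E70_1, 0.162% in E70_2, 0.321% in E70_3 and 6.78% in Adult_1 (5.08 to 8.85%). E60_1 and E60_2 were alike, and E60_3 lay within the range of the E70 libraries. With RGS5 required the share was 0.527% in E50_1, 0.406% in E70_1 and 0 of 617 cells in E70_2, and 3.12, 3.02, 0.223, 0.321 and 6.65% in E60_1, E60_2, E60_3, E70_3 and Adult_1. The intervals cover counting error only. The 3 libraries of E60 had a mean share of 2.17% ± 1.65 (SD, n = 3), and the 3 of E70 had 0.364% ± 0.226 (SD, n = 3), which did not pass the two-sided exact permutation test (p = 0.3, where 0.1 is the smallest p that 3 against 3 libraries allow). Libraries of different stages were pooled in pairs for sequencing, and the pairs of E60 with E70 were E60_1 with E70_1 (3.15 against 0.609%) and E60_3 with E70_3 (0.260 against 0.321%), so the direction differed between the pairs. The share of cells also depends on how many other cells survived dissociation.

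Mural cells were also counted against endothelial cells, found by the mirror image of the rule (PECAM1 and FLT1 over PDGFRB and RGS5). There were 0.598 mural cells per endothelial cell in E50_1, 0.481 in E60_1, 0.164 in E60_2 and 0.140 in E60_3. E70_1, E70_2 and E70_3 gave 0.333, 0.0909 and 0.192, and Adult_1 gave 0.769 (95% CI 0.521 to 1.13). E60_1 and E60_2, which had near equal shares of mural cells, differed in this ratio, and E60_2 held 658 endothelial cells (18.9% of its cells) and E60_1 held 534 (6.54%). On the log2 scale the E60 libraries averaged -2.17 ± 0.969 (SD, n = 3) and the E70 libraries -2.47 ± 0.941 (SD, n = 3), with overlapping values (p = 0.7, two-sided exact permutation test). Without the PDGFRB-only cells the ratio in E50_1 was 0.333.

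**Figure D2:**
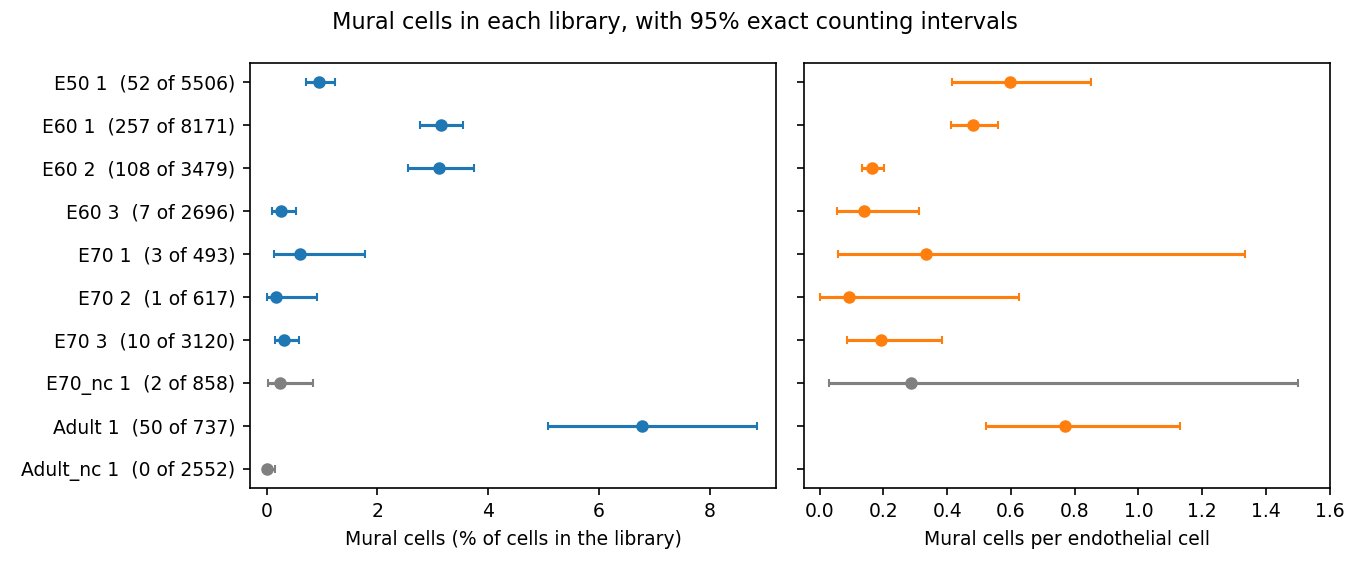
Share of mural cells (left, % of cells) and mural cells per endothelial cell (right) in each library, with exact 95% counting intervals and nuclei in grey. E60_1, E60_2 and Adult_1 lie above 3%, all other libraries below 1%, and the ratio is highest in Adult_1 at 0.769.

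Genes were ranked by the ratio of mural cells to all other cells where they reached 100 CPM in mural cells and were higher there in each of the 5 libraries, which 599 genes did. Of the first 25, 8 were on a list of 20 pericyte genes and 5 on a list of smooth muscle genes, which had 13 and 9 genes among the 599. This ranking is a description, since the cells were chosen by RGS5 and PDGFRB, and it used all mural cells of the 5 libraries. When it was repeated without the PDGFRB-only cells 24 of the 25 genes stayed among the first 25, and PDGFRB itself did not. HIGD1B, a hypoxia-inducible mitochondrial protein found in pericytes, was 35.0-fold higher in mural cells than in other cells, with log2 ratios between 4.64 and 5.73 in the 5 libraries. FABP4, a fatty acid carrier, was 27.2-fold higher, and TPM2, a muscle tropomyosin, 26.7-fold. KCNJ8 and ABCC9, the subunits of the vascular ATP-sensitive potassium channel, were 21.1-fold and 11.7-fold higher. All these folds are from the mean log2 ratio over the 5 libraries. For ABCC9 the log2 ratio was 1.38 in Adult_1 and 3.66 to 4.49 in the fetal libraries, so its fold does not describe the adult. NDUFA4L2 (20.1-fold), CD248 (19.6-fold), the collagen-binding proteoglycan LUM (18.1-fold), the forkhead factor FOXS1 (16.1-fold), COX4I2 (14.8-fold) and the Notch receptor NOTCH3 (13.4-fold) were also among the 25.

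The 2 large E60 libraries gave nearly the same profile. Among 4266 genes with a mean of at least 50 CPM in E60_1 and E60_2, 78 (1.83%) differed by 2-fold or more, and the median absolute difference was 0.19 on the log2 scale. KCNJ8 was at 195 and 192 CPM, ABCC9 at 447 and 514 CPM and NOTCH3 at 280 and 294 CPM in E60_1 and E60_2. In the 10 cells of E70_3 the same genes were at 263, 334 and 192 CPM, and in the 29 cells of E50_1 at 262, 411 and 211 CPM. The pericyte channel and NOTCH3 were thus present in all fetal libraries with at least 10 mural cells. VTN, ATP13A5, PLXDC1 and ART3, which mark pericytes in mouse, stayed under 15 CPM in each of the 5 libraries.

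Mural cells with at least 5 UMIs and 0.1% of UMIs from ACTA2 (smooth muscle actin) and TAGLN (transgelin) were set apart as contractile. This split is a range and not a type, as 37 cells of E60_1 and 14 of E60_2 had 3 to 6 of these UMIs, and the genes that made the split are not a finding. There were 5 contractile cells of 29 in E50_1 (17.2%, exact 95% CI 5.85 to 35.8%), 37 of 255 in E60_1 (14.5%, 10.4 to 19.4%) and 13 of 105 in E60_2 (12.4%, 6.76 to 20.2%). E60_3 had 0 of 6 and E70_3 had 0 of 10. In Adult_1 38 of 49 cells were contractile (77.6%, 63.4 to 88.2%).

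Contractile cells at E50 and E60 differed from adult ones in which smooth muscle genes they held. MYH11, the smooth muscle myosin heavy chain (chromosome 3, 7002667 to 7143093), had 0 UMIs in the 5 contractile cells of E50_1 and was at 4.16 CPM in those of E60_1 and 8.66 CPM in those of E60_2, against 3389 CPM in Adult_1. A UMI of MYH11 was found in 1 of 37 contractile cells of E60_1 (2.70%), 1 of 13 of E60_2 (7.69%) and 37 of 38 of Adult_1 (97.4%). The microglia of these libraries, which should lack the gene, had a share of 2.00% in E60_1, 2.41% in E60_2 and 25.4% in Adult_1, at median depths of 4817.5, 5450 and 6143.5 UMIs against 5218, 5252 and 7319 UMIs in the contractile cells. The E60 intervals of contractile cells (0.0684 to 14.2% and 0.195 to 36.0%) held the shares of this microglial background. The adult interval (86.2 to 99.9%) lay above it. So few contractile cells at E60 cannot show that MYH11 was absent from them. The other mural cells had shares of 5.96% in E60_1 (13 of 218, 3.21 to 9.98%) and 12.0% in E60_2 (11 of 92, 6.12 to 20.4%). Both intervals lay above those of the microglia (1.30 to 2.94% and 1.29 to 4.09%), at median depths of 6209 and 6989.5 UMIs. In E70_3 the share of other mural cells was 40.0% (4 of 10, 12.2 to 73.8%), an interval that holds the 17.0% of its microglia (18 of 106). The E70_3 share was therefore not above the background beyond counting error. Levels in these mural cells were 8.27, 16.8 and 42.6 CPM in the same order. A UMI of MYH11 was also found in 13.9 and 18.8% of the endothelial cells of E60_1 and E60_2, and in 13 of 52 of E70_3. Differences between these cell types were not tested. MYH11 in the adult microglia was at 57.7 CPM and in the adult endothelial cells at 135 CPM.

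MYOCD, the coactivator that turns on smooth muscle genes, was also highest in the adult. It had 0 UMIs in the contractile cells of E50_1 and E60_2, 24.97 CPM in those of E60_1 and 553 CPM in those of Adult_1. SYNPO2, an actin-bundling protein, was at 81.6 CPM in E50_1, 87.4 CPM in E60_1, 86.6 CPM in E60_2 and 1356 CPM in Adult_1 within contractile cells. LMOD1, which nucleates actin filaments, was at 0, 4.16, 8.66 and 201 CPM in the same order. In the 5 contractile cells of E50_1 the floor of 3 UMIs was 81.6 CPM, so MYH11, MYOCD, SYNPO2 and LMOD1 were at or under it there. Other smooth muscle genes were already there in the fetal contractile cells. DES, the intermediate filament desmin, was at 381 CPM in E50_1, 187 CPM in E60_1, 165 CPM in E60_2 and 543 CPM in Adult_1. MYL9, a myosin light chain, was at 870, 462, 390 and 1786 CPM, and CALD1, caldesmon, at 7966, 5297, 4433 and 2748 CPM, so that CALD1 was lowest in the adult.

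**Figure D3:**
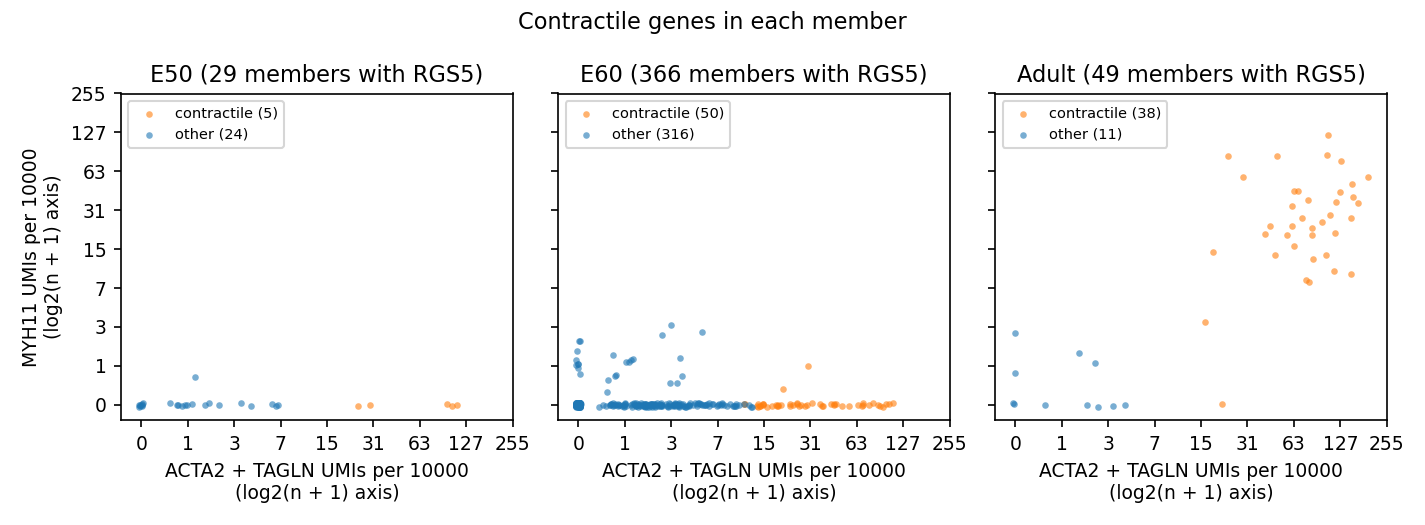
MYH11 against ACTA2 and TAGLN in each mural cell with RGS5 of E50, E60 and Adult, as UMIs per 10000 UMIs of the cell on log2(n + 1) axes with a small random shift, and contractile cells in orange. The 50 contractile E60 cells lie along the zero line of MYH11 apart from 2 of them, while 37 of the 38 adult ones lie above it.

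Within each library the contractile cells also held more of CTNNA3 (an alpha catenin) and KCNAB1 (a potassium channel subunit), which were named after their values had been seen. CTNNA3 was at 952 CPM in contractile and 70.9 CPM in the other mural cells of E50_1, at 1764 against 122 CPM in E60_1, 2312 against 222 CPM in E60_2 and 5116 against 496 CPM in Adult_1. KCNAB1 was at 218 against 48.2 CPM in E50_1, 295 against 34.4 CPM in E60_1, 234 against 38.4 CPM in E60_2 and 666 against 128 CPM in Adult_1. For NOTCH3, PDE5A and KCNJ8 no values of E50_1 are given. NOTCH3 was higher in contractile cells of the other libraries as well, at 674 against 220 CPM in E60_1, 511 against 264 CPM in E60_2 and 236 against 128 CPM in Adult_1. PDE5A, which breaks down cyclic GMP, was at 1107 against 475 CPM in E60_1 and 1030 against 497 CPM in E60_2, and at 169 against 158 CPM in Adult_1. KCNJ8 lay the other way, at 162 against 200 CPM in E60_1, 139 against 199 CPM in E60_2 and 31.7 against 173 CPM in Adult_1.

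The endothelial genes differed between the 2 kinds of cell too. PECAM1 was at 45.8 CPM in contractile and 175 CPM in the other mural cells of E60_1, at 173 and 223 CPM in E60_2, and at 21.1 and 285 CPM in Adult_1. Of the 490 mural cells 137 had at least 4 UMIs of PECAM1 and FLT1, and 325 had at most 1. The part of endothelial RNA in the difference between the 2 kinds was not tested.

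**Figure D4:**
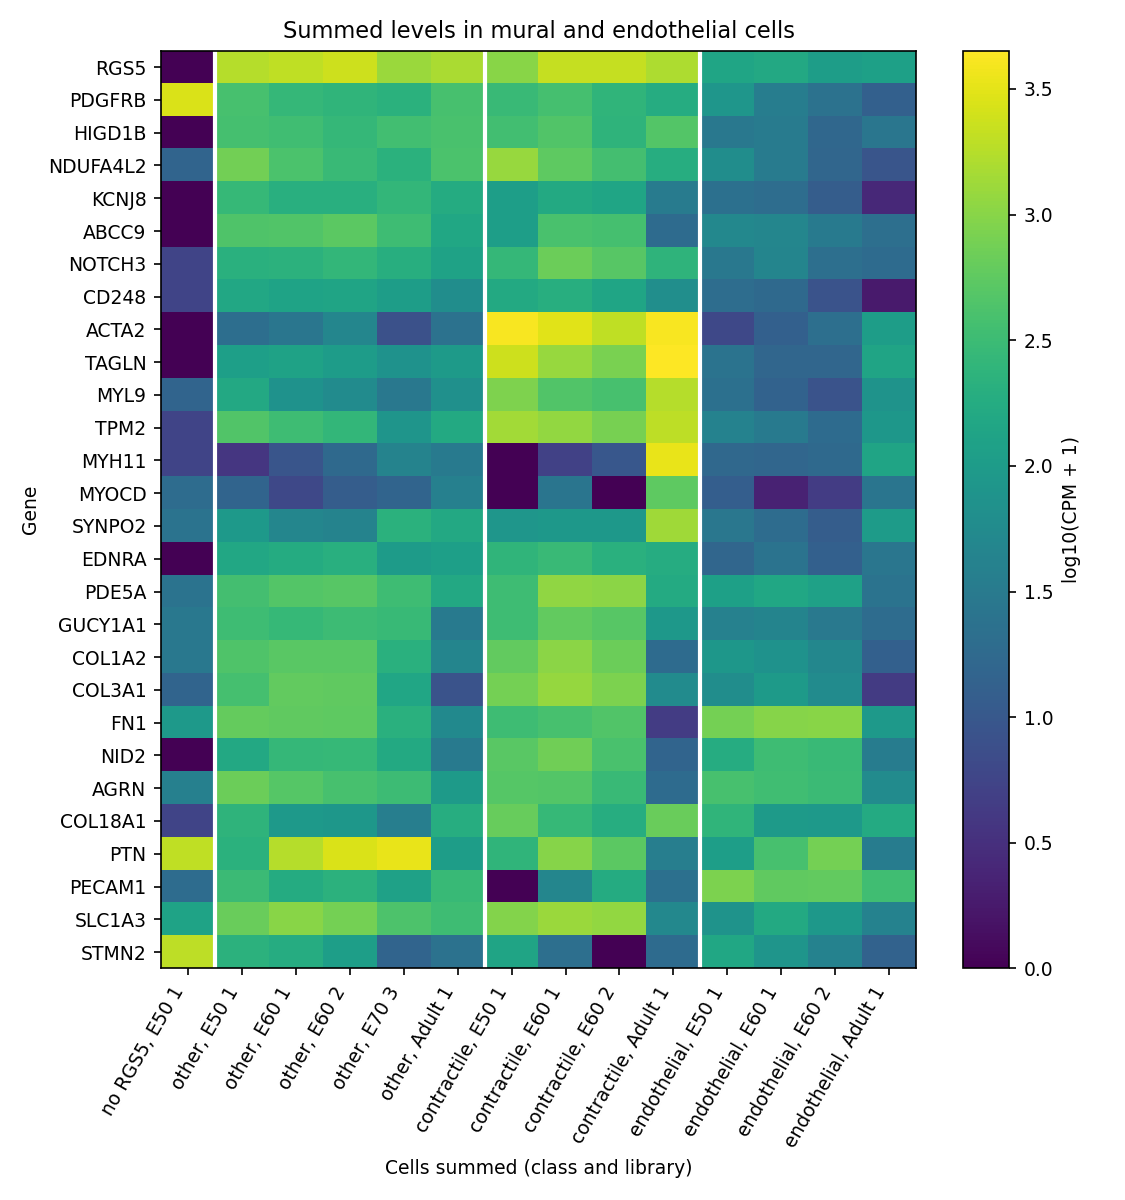
Summed levels, log10(CPM + 1), of 28 genes in the PDGFRB-only cells of E50_1, the mural cells with RGS5 that were not contractile, the contractile ones, and endothelial cells, by library. RGS5 is at 0 and PDGFRB at 2815 CPM in the first column, and MYH11 is highest in the contractile cells of Adult_1 (3389 CPM, against 135 CPM in the adult endothelial cells).

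The promoter of MYL9 is shown because it holds the CArG box, the site of serum response factor, with which MYOCD acts. The window was the 250 bases before the start of the gene in the RefSeq annotation of Sscrofa11.1, written 5′ to 3′ on the strand of the gene, with the CArG box in capitals. The pattern of the box is the same on both strands, so both were searched.
MYL9 (chr17:39787915-39788164, plus strand): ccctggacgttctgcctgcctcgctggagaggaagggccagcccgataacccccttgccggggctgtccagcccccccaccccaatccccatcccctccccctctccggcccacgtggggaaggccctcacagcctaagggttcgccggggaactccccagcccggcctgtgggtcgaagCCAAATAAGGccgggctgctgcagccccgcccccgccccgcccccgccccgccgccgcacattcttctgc
The box began 70 bases before the start of MYL9. Among the promoters of all 19547 protein-coding genes on assembled chromosomes 1.31% held a box. MYL9 was at 1237 CPM in the adult mural cells, 124 CPM in those of E60_1 and 98.1 CPM in those of E60_2. A match of letters does not show that a factor binds.

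The adult mural cells were compared with those of E60_1 and E60_2. With 1 adult library the comparison has no replicate check and no test, and a gene was called when it was at least 2-fold past both E60 libraries at a mean of at least 50 CPM. Of 4282 genes 690 were higher (16.1%) and 826 lower (19.3%) in the adult. The median gene lay at -0.33 on the log2 scale, and when this was set to 0 the counts were 893 higher and 491 lower. In endothelial cells 614 of 4004 genes were higher (15.3%) and 820 lower (20.5%), so differences of this size between the libraries were as frequent in the other vascular cell type. The adult library shared a sequencing run with E60_2, and against E60_2 alone 793 genes were higher and 968 lower. The adult mural cells were mostly contractile and the E60 ones mostly not, so sums over all mural cells also hold this difference in makeup, and values within each kind are given for some genes.

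Of 14 smooth muscle genes that passed the minimum 12 were higher in the adult and 0 lower, with and without centring. Among all genes tested 16.1% were higher and 19.3% lower. The median of the list was 3.25 on the log2 scale. MYH11 was at 2316 CPM in the adult, 7.73 CPM in E60_1 and 15.8 CPM in E60_2 (220-fold against both pooled, 95% counting interval 152 to 331). ACTA2 (chromosome 14, 100868145 to 100886732) was at 2810, 436 and 284 CPM (7.32-fold, 6.73 to 7.97), and TAGLN (chromosome 9, 44561756 to 44567385) at 3084, 271 and 192 CPM (12.7-fold, 11.5 to 13.9). MYOCD was at 388, 7.73 and 9.49 CPM (46.6-fold, 30.0 to 75.6). SMTN and CALD1 were the 2 genes of the list that were in neither set. Within the contractile cells MYH11 was at 3389 CPM in the adult, against 1 UMI in each E60 library. ACTA2 and TAGLN chose these cells and are not compared within them. In endothelial cells 6 of 8 listed genes were higher in the adult and 1 was lower, where 15.3% and 20.5% of all genes tested were. ACTA2 was at 107 CPM in the adult endothelial cells against 12.2 and 20.8 CPM at E60. ACTA2 in adult microglia was at 30.2 CPM, against 7.95 and 14.6 CPM in those of E60_1 and E60_2. The part of free RNA in the values of other cell types was not tested.

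Among 16 tested pericyte genes 4 were higher and 6 lower in the adult, where 16.1% and 19.3% of all genes tested were. With the median set to 0 there were 4 and 3, where 893 and 491 of all 4282 genes were. No result about the list is read from these counts. ABCC9, the regulatory subunit of the vascular potassium channel (chromosome 5, 51536531 to 51673583), was at 59.9 CPM in the adult against 447 CPM in E60_1 and 514 CPM in E60_2 (7.84-fold lower, 5.29 to 12.2). In the adult cells that were not contractile, 11 in number, it was at 150 CPM, against 455 and 533 CPM in the E60 ones. KCNJ8, the pore subunit of the same channel (chromosome 5, 51695927 to 51704402), was at 76.7, 195 and 192 CPM over all mural cells but at 173, 200 and 199 CPM in the cells that were not contractile. In contractile cells KCNJ8 was at 31.7, 162 and 139 CPM and ABCC9 at 17.6, 395 and 372 CPM, so both were lower in the adult within this kind. Of the 11 adult cells that were not contractile, 2 with over 3 times the median UMIs of the library held 52.3% of the UMIs, and without them, an alternative chosen after the data were seen, ABCC9 was at 173 CPM and KCNJ8 at 252 CPM. ANPEP, an aminopeptidase of pericytes, was 6.21-fold lower in the adult and GGT5 8.18-fold lower. MCAM, COX4I2, ITIH5 and PTH1R, the receptor for parathyroid hormone, were higher, with PTH1R at 106 CPM in the adult against 29.3 and 20.04 CPM. Within kinds MCAM was at 268 CPM in adult contractile cells against 196 and 69.3 CPM and at 67.6 CPM in the other adult cells against 71.3 and 73.3 CPM. ANPEP was at 7.05 CPM against 162 and 139 CPM in contractile cells and at 45.1 CPM against 110 and 121 CPM in the others.

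Of 10 tested basement membrane genes 7 were lower in the adult mural cells and 1 higher, where 19.3% and 16.1% of all genes were. FN1, fibronectin, was at 19.2 CPM against 544 and 547 CPM (28.4-fold lower, 14.4 to 66.0), and NID2, a nidogen that links laminin to collagen IV, at 19.2 CPM against 330 and 291 CPM (16.5-fold lower). AGRN, agrin, was 10.3-fold lower, and LAMB1, a laminin chain, 4.37-fold. COL18A1 went the other way, at 501 CPM against 117 and 98.1 CPM (4.53-fold higher, 3.78 to 5.42). In endothelial cells 9 of 11 listed genes were lower in the adult, where 20.5% of all genes were. COL18A1 was in neither set there (1.86-fold, 1.599 to 2.15). The fibrillar collagens COL1A2 and COL3A1, which fibroblasts make in quantity, were at 593 and 677 CPM in the mural cells of E60_1, 538 and 602 CPM in those of E60_2, and 26.4 and 40.8 CPM in the adult. For FN1 and COL18A1 the direction was the same within both kinds. FN1 was at 3.52 CPM in adult contractile cells against 391 and 459 CPM, and at 52.6 CPM in the other adult cells against 568 and 560 CPM. COL18A1 was at 648 CPM against 283 and 190 CPM, and at 188 CPM against 91.7 and 85.3 CPM.

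Signalling genes of the vessel wall differed in both directions. Over all genes tested 16.1% were higher and 19.3% lower in the adult mural cells. The lists here are short, and no result about a list is read from their counts. Among 14 tested genes of contraction and relaxation S1PR3, GUCY1A1 and PDE5A were lower in the adult and KCNMA1, a calcium-activated potassium channel, was higher. GUCY1A1, a subunit of the nitric oxide receptor, was at 69.5 CPM against 322 and 340 CPM, while GUCY1B1, its partner, was at 211 CPM against 282 and 285 CPM and was in neither set. The endothelin receptor EDNRA was at 161 CPM against 193 and 201 CPM. Of 7 Notch genes HES1, a Notch target, was 17.0-fold higher and NOTCH1 2.19-fold lower, and NOTCH3 was at 201 CPM in the adult and 280 and 294 CPM at E60. Of 4 PDGF genes PDGFA was 9.26-fold higher and PDGFD 3.23-fold lower. TGFB3 was at 125 CPM against 4.97 and 6.33 CPM (22.9-fold, 12.7 to 43.9), one of 3 TGF-beta and BMP genes of 13 that were higher, with ENG lower. Within contractile cells TGFB3 was at 176 CPM against 16.6 and 17.3 CPM and HES1 at 303 CPM against 4.16 and 17.3 CPM. Of 8 tested transcription factors of mural cells FOXF2 was lower, at 38.4 CPM against 106 and 116 CPM, and the other 7 were in neither set, TBX18 at 38.4 CPM against 63.5 and 72.8 CPM and EBF1 at 1245 CPM against 1667 and 1626 CPM among them. Of 3 tested angiopoietin and VEGF genes NRP1 and KDR, which endothelial cells express, were lower in adult mural cells, and KDR turned to higher in the adult (0.90 on the log2 scale) when mural cells with more than 1 UMI of PECAM1 and FLT1 were left out. HES1, and ID1 and LTBP1 of the TGF-beta and BMP genes, were also called higher in adult endothelial cells. PDE5A, PDGFD, FOXF2, NRP1 and KDR were also lower there. The other genes called here were not called there, in part because they were not tested. In endothelial cells only 5 genes of contraction and relaxation and 3 PDGF genes reached the minimum, and PDGFA was not among them. Genes without a call there are therefore not shown to be particular to mural cells.

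Secreted factors differed in both directions. PTN, pleiotrophin, a growth factor of mural cells and glia, was at 57.6 CPM in the adult against 1679 CPM in E60_1 and 2514 CPM in E60_2 (34.2-fold lower, 22.9 to 53.4). It was also at 813 and 3640 CPM in the microglia of E60_1 and E60_2 and 46.6 CPM in the adult ones. Within kinds PTN was at 35.2 CPM in adult contractile cells against 982 and 545 CPM, and at 105 CPM in the other adult cells against 1786 and 2787 CPM. TIMP3, an inhibitor of matrix proteases, was 5.07-fold higher in the adult mural cells, and CCL19, a chemokine, was at 168 CPM against 6.62 and 20.04 CPM. ITIH4 and MGP, named after their values had been seen, had the largest ratios of all genes tested. ITIH4 had 0 UMIs in E60_1 and E60_2 mural cells and was at 2863 CPM in the adult, at least 905-fold higher (floor of 3 UMIs per library), and at 4189 CPM in contractile and 37.5 CPM in other adult mural cells. MGP, an inhibitor of calcification, was at 1616 CPM in the adult against 6.07 and 2.11 CPM, and at 2357 CPM in contractile and 37.5 CPM in other adult mural cells.

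Immediate early and stress genes differed in the same direction in both vascular cell types. Of 10 tested in mural cells 9 were higher in the adult, with a list median of 3.64 on the log2 scale. Of 10 tested in endothelial cells all 10 were, with a list median of 1.62. Among all genes 16.1% were higher in mural and 15.3% in endothelial cells. FOS was at 3585 CPM in adult mural cells against 176 and 172 CPM, at 2445 CPM in adult endothelial cells against 538 and 470 CPM, and at 1402 CPM in adult microglia against 76.6 and 88.6 CPM. ATF3 was 21.0-fold higher in adult mural cells (17.71 to 25.02). The dissociation of fresh tissue can induce these genes, and its part was not tested. MBP, a myelin gene, was at 849 CPM in adult mural cells, 787 CPM in adult endothelial cells and 863 CPM in adult microglia, a like level in each.

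**Figure D5:**
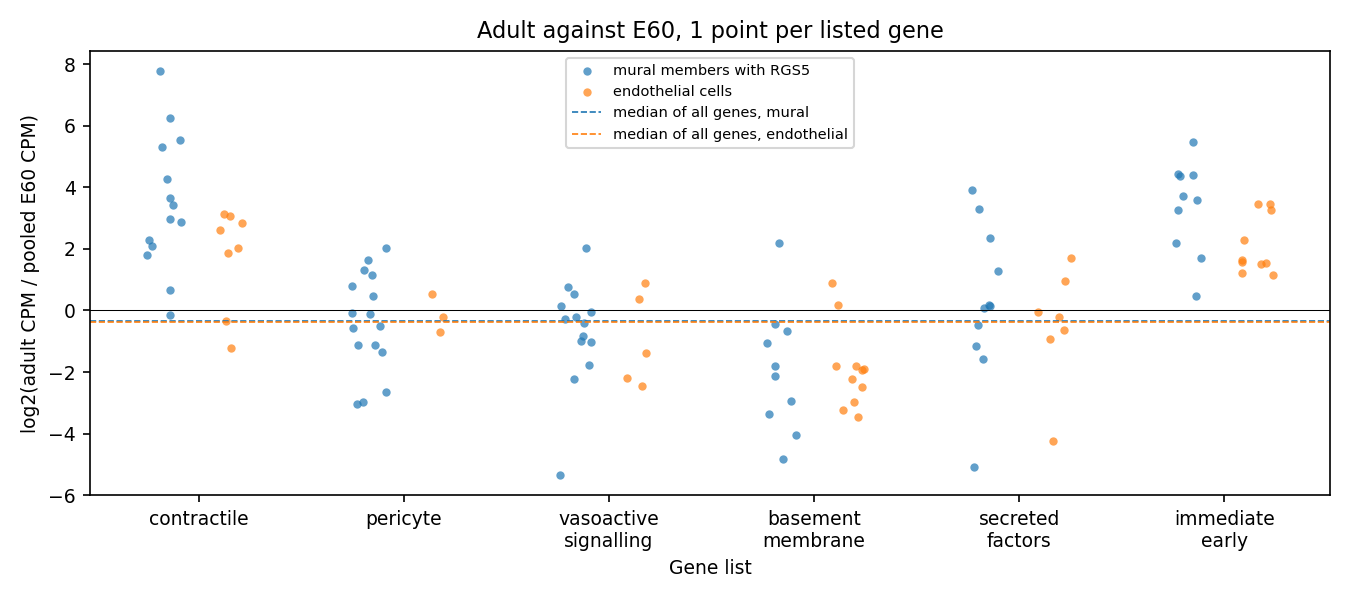
Log2 ratio of the adult CPM to the pooled CPM of E60_1 and E60_2 for the tested genes of 6 lists, 1 point per gene, in mural cells with RGS5 and in endothelial cells; dashed lines are the medians of all tested genes (-0.33 and -0.36). In mural cells 12 of 14 smooth muscle genes and 9 of 10 immediate early genes were called higher, and 7 of 10 basement membrane genes lower. Of all tested genes 16.1% were called higher and 19.3% lower. Genes at 0 in either stage have no point.

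The mural cells of E50_1 with RGS5 differed from those of E60 in fewer genes. Of 4251 genes 218 were higher (5.13%) and 253 lower (5.95%), against 115 (2.82%) and 50 (1.22%) of 4084 genes in endothelial cells. Of 10 tested smooth muscle genes 0 were in either set, and of 15 pericyte genes FOXS1 alone was. FOXS1, a forkhead factor of pericytes, was at 450 CPM in E50_1 against 49.7 CPM in E60_1 and 126 CPM in E60_2 (5.94-fold, 4.83 to 7.29), and at 132 CPM in the adult. The basement membrane genes COL18A1 and LAMC3 were higher in E50_1, at 272 and 149 CPM against 117 and 55.8 CPM in E60_1 and 98.1 and 73.8 CPM in E60_2. COL6A1 was 3.62-fold higher.

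Several genes that were lower in E50_1 are genes of astroglia. AQP4, the water channel of astrocytes, was at 5.14 CPM in the mural cells of E50_1 against 766 and 175 CPM in E60_1 and E60_2, and it was at 398 CPM in E70_3 and 4.80 CPM in Adult_1. The microglia of E60_1 and E60_2 held AQP4 at 415 and 166 CPM and those of E50_1 at 5.04 CPM. EDNRB, an endothelin receptor, was at 2.57 CPM against 254 and 154 CPM in mural cells, and at 10.7 CPM against 150 and 200 CPM in microglia. Over the 9 genes of the astroglial list, which include VIM, the sum was 2588 CPM in E50_1, 5090 CPM in E60_1, 2866 CPM in E60_2, 4163 CPM in E70_3 and 2228 CPM in Adult_1. In microglia the sums were 295, 1995, 2017, 466 and 1546 CPM in the same order. In contractile cells the sum was 4840 CPM in E50_1 and 2801 CPM in Adult_1, the 2 libraries with the lowest AQP4 in mural cells. The sum is therefore not read as a measure of astroglial RNA. The part of free RNA or of shared droplets in these levels was not tested. Of 9 immediate early genes 6 were higher in the mural cells of E50_1, where 5.13% of all genes were. In endothelial cells 2 of 10 were, where 2.82% of all genes were.

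UMIs of cell division genes were found in fetal mural cells and in the other cell types of the same libraries. After each cell with RGS5 was drawn down to 3000 UMIs, at least 2 UMIs of 7 division genes (TOP2A, UBE2C, CENPF, CDK1, TPX2, BIRC5 and CCNB1) were found in 7 of 29 cells of E50_1 (24.1%, exact 95% CI 10.3 to 43.5%), 31 of 243 of E60_1 (12.8%, 8.84 to 17.6%) and 15 of 105 of E60_2 (14.3%, 8.22 to 22.5%). E70_3 had 1 of 10 and Adult_1 had 0 of 49 (exact 95% CI 0 to 7.25%, where 3 cells would be 6.12%). This left out 12 mural cells of E60_1 with fewer UMIs. Drawn down alike, 13 of 128 microglia of E50_1 (5.52 to 16.7%), 163 of 1190 of E60_1 (13.7%), 89 of 539 of E60_2 (16.5%) and 5 of 227 of Adult_1 had them, and so did 8 of 87 endothelial cells of E50_1 (4.05 to 17.3%), 59 of 522 of E60_1 (11.3%), 73 of 658 of E60_2 and 0 of 65 of Adult_1. The exact intervals of mural cells, microglia and endothelial cells overlapped in E50_1, and no cycling is read from these shares. Without drawing down the shares were 41.4, 17.3, 22.9, 40.0 and 6.12%. UBE2C, a ubiquitin ligase of mitosis, was at 116 CPM in E50_1, 140 CPM in E60_1, 126 CPM in E60_2 and 0 in E70_3 and Adult_1.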

How the data were processed

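Single cells or nuclei of the MEC were made into 10x v2 libraries and sequenced on an Illumina NextSeq instrument. The deposited values were raw counts of UMIs per gene and cell, made by the authors with Cell Ranger (given as version 2.20 in the submitters' processing notes) on Sscrofa11.1 with intronic reads included. Each of the 10 tables held 22452 genes, and 7482 of these rows were named by an Ensembl ID, of which 987 were given a symbol from RefSeq.

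Cells were chosen by fixed UMI thresholds without clustering, with Python 3.11.15, numpy 2.4.6, scipy 1.17.1 and scanpy 1.11.5. CLDN5 had no row, so the endothelial side of the rule used PECAM1 and FLT1. Scrublet called 183 of 28229 cells doublets, 2 of them mural cells and 0 in E60_1 and E60_2, so doublets were kept and 48 mural cells with over 3 times the median UMIs of their library were left out as an alternative. Counts were summed per library and kind of cell and given as CPM, with exact Poisson or binomial 95% intervals, which cover counting error only.

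Shares and ratios at E60 and E70 were compared by two-sided exact permutation tests over libraries. Nothing in the labels says that libraries of 1 stage were more than separate samples of pooled or single brains. The gene tests planned between E60 and E70 (edgeR on summed counts) could not be made, because E70_3 alone of the E70 libraries held 10 mural cells. Adult and E50, with 1 library each, were described by a fold of 2 past both E60 libraries at a mean of at least 50 CPM. The mural cells and all gene lists were chosen with earlier results of these data known. Genes named were members of these lists, the 25 with the highest ratio to other cells, and those said to be named after their values were seen. The calls of genes past 2-fold were tested on simulated sums with counting error only, and the permutation test on known values. The choice of cells, the contractile split, the drawing down of UMIs and the promoter search were not tested in this way. Promoters of the other listed genes are not reported here.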

Additional observations from a re-analysis of the deposited data

How the results depend on the processing

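The share of mural cells was lower at E70 than at E60 in all 12 alternatives run. The difference was -1.81 percentage points in the main comparison and between -2.76 and -1.32 points when 1 library was left out. No alternative passed the test, but 3 against 3 libraries allow no p under 0.1 in the exact permutation test, and fewer libraries or blocks allow only larger ones. The log2 ratio to endothelial cells, with a difference of -0.31 at E70, changed sign without E60_1 (0.25) and without E70_2 (0.18), and leaving out 1 library gave between -0.75 and 0.25. Under the looser rule the difference of the log2 ratio was -1.79 (p = 0.3, exact permutation test). With the replicate number as a replicate block the differences were -1.81 points and -0.31 on the log2 scale, both at p = 0.5 (exact permutation test). A block does not change these differences by construction, so it is no check of them. Libraries of equal number did not deviate together (correlations of -0.15, 0.021 and -0.055), and nothing in the labels ties them, although E60_1 with E70_1 and E60_3 with E70_3 also shared a sequencing run. The ratio had no value under the stricter rule or among cells with RGS5, since a library was at 0, and none of the alternatives of the gene tests between E60 and E70 was run, as these tests could not be made.

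The counts of genes past 2-fold moved with the minimum level. For the adult they were 1280 higher and 1414 lower at a minimum of 20 CPM, 2993 and 1775 with no minimum, and 491 lower with the median set to 0. They ranged from 778 to 793 higher and from 968 to 1025 lower when 1 E60 library was left out. For E50 they were 462 and 549 at 20 CPM and 1078 and 748 with no minimum, and ranged from 301 to 331 higher and from 344 to 394 lower without 1 E60 library. With fewer libraries to pass or a lower minimum more genes can be called by construction. The 138 values of called listed genes, adult and E50 together, cannot change with the minimum level. Of them 49 moved beyond their counting interval when cells with more than 1 UMI of PECAM1 and FLT1 were left out, 33 with the median set to 0, 33 without E60_1, 12 without E60_2, 29 with the PDGFRB-only cells included, 22 without cells of high UMIs and 7 under the stricter rule. Signs changed when cells with more than 1 UMI of PECAM1 and FLT1 were left out, with KDR at 0.90 and MFSD2A at 0.17 in the adult and ITM2A at 0.068 in E50 on the log2 scale, and the cause was not tested. All alternatives of the stage counts were chosen after the data were seen. The 10 cells of E70_3, the 29 of E50_1 and the 49 of Adult_1 limit what can be said of low genes.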
